A study of Mus musculus with 6 samples.

Results

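Antigen presentation was followed through 10 genes of the mouse major histocompatibility complex (MHC) pathways, chosen by gene symbol from a table of 15388 genes measured in hippocampus. There were 6 class I genes (B2m, H2-K1, H2-D1, Tap1, Tap2 and Tapbp) and 4 class II genes (H2-DMa, Cd74, H2-Aa and H2-Ab1). All 10 were found in the table and all 10 passed the filter on low reads. The mice were Cx3cr1-Cre/Ert2+; NuTRAP+, in which tamoxifen activates a Cre recombinase driven by the Cx3cr1 promoter and recombined cells then carry EGFP on their ribosomes. Ribosomes were pulled down with an antibody against GFP (translating ribosome affinity purification, TRAP) to give the positive fraction, and part of the cleared homogenate was kept as the input. Per the methods of the study, mice of both sexes were used, they carried 1 copy of each allele and were about 3 months old when tamoxifen was given, and tissue was taken weeks later so that short-lived labelled monocytes had been replaced. Animals 201, 207 and 208 gave 1 Input and 1 Positive library each, 6 libraries in all, and both fractions shared genotype, treatment and animal. The Cx3cr1 promoter is also active in macrophages at the borders of the brain, no mouse without Cre was analysed here, and a small population labelled without tamoxifen was described for this line.

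Class I molecules carry peptides from the cytosol to the cell surface for CD8 T cells. Immunoproteasome subunits cut the peptides, the TAP transporter (Tap1 and Tap2) moves them into the endoplasmic reticulum, tapasin (Tapbp) holds TAP to an empty heavy chain (H2-K1 or H2-D1), and B2m is the light chain that every classical class I molecule needs. Class II molecules (an alpha chain such as H2-Aa with a beta chain such as H2-Ab1) carry peptides from endosomes for CD4 T cells, with Cd74, the invariant chain, blocking the groove until proteases remove it and the H2-DM dimer loads the peptide. In brain, class II is known mainly from border macrophages, dendritic cells and activated microglia, whereas class I is made by many cell types, including endothelium.

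Libraries totalled 14879734 to 17757918 reads. Levels are given below as scaled reads, the reads of a library after division by its size factor, with the SD over 3 animals. Cx3cr1, the gene whose promoter drives the Cre, had 277 to 324 scaled reads in Input and 6947 to 9875 in Positive (log2 fold change 4.77, adjusted p = 1.94e-10), and 10 of 10 microglia markers were higher in Positive, with a median log2 fold change of 4.62. Neuron markers had a median of 0.06, so RNA of neurons was present in Positive at close to its input share. Astrocyte markers had a median of -0.32, with 4 of 10 lower and 0 higher, and oligodendrocyte markers of -2.13. RNA of astrocytes was thus still present in Positive, at somewhat below its input share. Over 15343 genes tested, 46% passed an adjusted p-value of 0.05 in edgeR's quasi-likelihood test in either direction. Bulk values cannot tell more cells of a type from more RNA per cell.

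MHC promoters share short elements, and 3 promoters are printed because they stand for the light chain, a class I heavy chain and a class II chain. Sequences are from the RefSeq promoter table of GRCm38.p6, read 5′ to 3′ on the strand of the gene and end at the base before the annotated start. Capitals mark the letters searched for, on both strands, in the 250 bases before each start. These were TGACG (core of the X2 box), CCAAT (reverse ATTGG), CTGATTGG (the Y box in its longer form, which contains the reverse of CCAAT), the interferon-stimulated response element, shown in B2m by its first capitals, and the NF-kappaB site of enhancer A, shown in H2-K1 by its first capitals. In H2-Aa the capitals of the X2 core run together because TGACG was found on both strands.
B2m, chr2:122147542-122147686, plus strand: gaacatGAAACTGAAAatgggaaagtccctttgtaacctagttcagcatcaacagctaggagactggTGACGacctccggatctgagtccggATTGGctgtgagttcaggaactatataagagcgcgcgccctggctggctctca
H2-K1, chr17:34000334-34000463, minus strand: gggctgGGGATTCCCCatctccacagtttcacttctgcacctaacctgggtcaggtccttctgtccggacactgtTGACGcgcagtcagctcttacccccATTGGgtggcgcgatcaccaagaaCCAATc
H2-Aa, chr17:34287824-34287958, minus strand: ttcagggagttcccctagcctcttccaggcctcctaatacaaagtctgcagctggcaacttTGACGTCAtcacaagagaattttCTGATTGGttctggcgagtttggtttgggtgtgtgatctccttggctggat

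Of the 7 members with a promoter in the table, 5 held TGACG (B2m, H2-K1, H2-D1, Tap1 and H2-Aa). It lay 78 bases upstream of the start in B2m, 55 in H2-K1 and 74 in H2-Aa, counted from the first base of the match. A CCAAT box in reverse lay 53, 30 and 48 bases upstream in the same 3 genes. TGACG was found in 17.8% and CCAAT in 33.8% of 32851 windows of 250 bases, so either alone is common. CTGATTGG, held by the windows of H2-Aa, H2-D1 and Tap1, was found in 3.83% of windows. The interferon-stimulated element, held by B2m, was found in 2.98%. The enhancer A site was held by H2-K1 and H2-D1 and by 28 windows in all (0.0852%). Not every start searched from was the gene start given below. A start used for H2-DMa lay upstream of its gene, and those of Tapbp and H2-D1 lay inside their genes. The lack of TGACG in H2-DMa and Tapbp thus holds only for the windows searched. A match is a description of letters and no measurement of binding was made.

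All 10 genes were enriched in the positive fraction, and for none did the 3 Positive and 3 Input libraries overlap. Among all genes tested, 23.9% were called higher and 22% lower in Positive, and 28.9% had Positive libraries all above the Input libraries. Fold changes (Positive over Input) ran from 1.95 for Tap2 to 12.2 for Cd74, with a median log2 fold change of 2.47 against -0.01 over all genes. Cd74, H2-Aa, H2-Ab1, B2m and H2-D1 passed 5-fold, 5 of 10 genes against 3.75% of all genes. The class II chains with Cd74 stood highest, the light chain and heavy chains of class I came next, and the transporter, tapasin and H2-DMa were lowest.

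**Figure D1:**
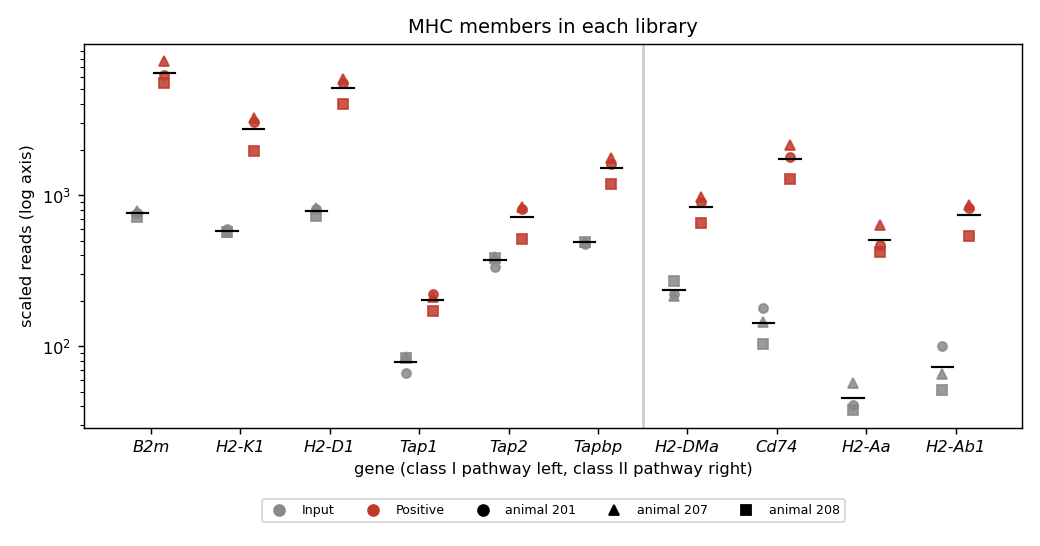
Scaled reads (log axis) of the 10 MHC genes in each of the 6 libraries, Input in grey and Positive in red, with 1 marker shape per animal and a line at the mean of 3. Every red point lies above every grey point of the same gene, and the gap is narrowest for Tap2 (335 to 390.0 against 509 to 839) and wide for Cd74 (103 to 178 against 1272 to 2145) and H2-Aa (37.8 to 57.3 against 419 to 631).

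B2m (chr2:122147686-122153083, plus strand, mm10) was the most abundant member per kilobase of exon in both fractions. It had 759, 790.2 and 719 scaled reads in the Input of animals 201, 207 and 208, and 6199, 7662 and 5507 in Positive. Input varied little, and the lowest Positive library was still several times the highest Input. The means were 756 ± 35.9 and 6456 ± 1100.0 (SD, n = 3). The log2 fold change was 3.09 ± 0.12 (SE, edgeR adjusted p = 5.16e-10).

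The heavy chain H2-D1 (chr17:35262730-35267499, plus strand) had 806, 816 and 724 scaled reads in Input and 5474, 5874 and 4009 in Positive. Its log2 fold change was 2.71 ± 0.13 (SE, edgeR adjusted p = 3.35e-09). The other classical heavy chain of the table, H2-K1 (chr17:33996017-34000333, minus strand), had 599.5, 572 and 570.1 scaled reads in Input and 3025, 3234 and 1952 in Positive. It rose less, by a log2 fold change of 2.24 ± 0.15 (SE, edgeR adjusted p = 1.08e-07). Animal 208 was the lowest of the Positive libraries for both heavy chains. These loci resemble each other and other class I loci. Of all 42-base stretches in the longest coding transcript, 19.3% in H2-D1 and 13.8% in H2-K1 also occurred in another gene, H2-K1, H2-D1, H2-Q1, H2-Q6 and H2-T23 among them, so reads from these stretches could be assigned to either gene and the split between the loci is uncertain. For B2m, H2-Aa, H2-Ab1 and H2-DMa the share was 0, and for the remaining members it was at most 2.31%.

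The peptide transporter was the least enriched member of the class I route. Tap1 (chr17:34187553-34197225, plus strand) had 66.3, 85.5 and 83.2 scaled reads in Input and 221, 213 and 172 in Positive. Its log2 fold change was 1.37 ± 0.18 (SE, edgeR adjusted p = 4.39e-05). Tap2 (chr17:34203527-34216321, plus strand) had 335, 390.0 and 383 scaled reads in Input against 809, 839 and 509 in Positive. Its log2 fold change was 0.96 ± 0.16 (SE, edgeR adjusted p = 0.000383). Positive of animal 208 was the nearest to the Input range. Without that library the log2 fold change of Tap2 was 1.16. Tap1 overlaps Psmb9, and Tap2 overlaps annotated genes, on the opposite strand. Reads were assigned by strand.

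Tapbp (chr17:33915899-33929288, plus strand), the bridge between TAP and the heavy chain, had 475, 493 and 491 scaled reads in Input and 1603, 1761 and 1187 in Positive. Its log2 fold change was 1.64 ± 0.13 (SE, edgeR adjusted p = 3.43e-07). It thus lay between the transporter and the heavy chains.

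Among class II genes, Cd74 (chr18:60803848-60812646, plus strand) had 178, 144 and 103 scaled reads in Input and 1799, 2145 and 1272 in Positive. This was the largest change of the 10 members, a log2 fold change of 3.61 ± 0.21 (SE, edgeR adjusted p = 1.72e-08), and it ranked 287 of 15343 genes by log2 fold change. The alpha chain H2-Aa (chr17:34282744-34287827, minus strand) had 40.8, 57.3 and 37.8 scaled reads in Input and 467, 631 and 419 in Positive. Its log2 fold change was 3.47 ± 0.21 (SE, edgeR adjusted p = 2.5e-08). The beta chain H2-Ab1 (chr17:34263209-34269418, plus strand) had 100, 65.8 and 51.4 scaled reads in Input and 824, 864 and 538 in Positive. Its log2 fold change was 3.36 ± 0.23 (SE, edgeR adjusted p = 1.04e-07). The SEs of these 3 genes overlap, and their order among themselves cannot be read from these libraries.

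H2-DMa (chr17:34135182-34139101, plus strand), the alpha chain of the peptide editor H2-DM, was the exception among the class II members. It had 222, 215 and 270.4 scaled reads in Input and 901, 965 and 652 in Positive, a log2 fold change of 1.84 ± 0.15 (SE, edgeR adjusted p = 6.16e-07). The fold of 3.57 was the smallest of the class II members, and the Positive libraries still lay above all Input libraries.

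Levels of different genes were compared per kilobase of annotated exon. In Positive, B2m stood first at 7507 ± 1279 scaled reads per kb (SD, n = 3), followed by H2-D1 at 1985 ± 381 and Cd74 at 1036 ± 262. H2-K1 had 932 ± 234 and could not be told from Cd74 by its range. Tapbp had 418 ± 81.8, H2-Ab1 289 ± 69.2, H2-DMa 243 ± 47.9, Tap2 190.2 ± 48.3 and H2-Aa 133 ± 29.3 scaled reads per kb, and each of these neighbours in the order overlapped with the next. Tap1 was last at 37 ± 4.81. In Input the order was B2m (879), H2-D1 (303), H2-K1 (198), Tapbp (134), Tap2 (97.7), Cd74 (84.3), H2-DMa (68.3), H2-Ab1 (28.2), Tap1 (14.3) and H2-Aa (11.9) scaled reads per kb. Cd74 thus moved from the sixth place to the third and Tap2 from the fifth to the eighth. The order depends on the length used. With the longest coding transcript in place of all annotated exons, H2-Aa had 448 ± 98.6, H2-Ab1 612 ± 147 and H2-K1 1691 ± 425 scaled reads per kb in Positive, and H2-K1 then lay above Cd74 (1233 ± 312) with overlapping ranges.

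Ratios within a library do not depend on scaling between libraries, and gene length cancels when a ratio is compared between fractions. In all, 10 ratios were computed and compared by an exact permutation test over the 6 libraries (two-sided), whose smallest possible p is 0.1 with 3 against 3. The B2m reads per read of H2-K1 and H2-D1 together were 0.54, 0.569 and 0.555 in Input and 0.729, 0.841 and 0.924 in Positive, without overlap (exact p = 0.1, 0.167 after Benjamini-Hochberg adjustment). H2-D1 over H2-K1 was 1.35 ± 0.077 in Input and 1.89 ± 0.139 in Positive (SD, n = 3, exact p = 0.1, adjusted 0.167). Tap2 over Tap1 was 4.74 ± 0.275 in Input and 3.52 ± 0.505 in Positive (SD, n = 3, exact p = 0.1, adjusted 0.167). In each of these 3 ratios all Positive libraries lay on 1 side of all Input libraries.

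Among partner genes of class II, some ratios overlapped between fractions and 1 did not. Cd74 over H2-Aa was 3.2 ± 1.02 in Input and 3.43 ± 0.41 in Positive (SD, n = 3, exact p = 0.7, adjusted 0.778), with a change of 0.14 ± 0.31 on the log2 scale per animal. H2-Ab1 over H2-Aa was 1.65 ± 0.699 and 1.47 ± 0.257 (SD, n = 3, exact p = 0.9, adjusted 0.9), a log2 change of -0.10 ± 0.36. These spreads are wide, so a difference of the size of the SD would not have been seen. H2-DMa over H2-DMb1, the alpha and a beta chain of the same dimer, was 3.83, 7.14 and 6.18 in Input and 1.63, 1.52 and 1.55 in Positive (exact p = 0.1, adjusted 0.167). The 3 chains Cd74, H2-Aa and H2-Ab1 summed to 42.1%, 33.8% and 26.7% of the B2m reads in Input and to 49.8%, 47.5% and 40.5% in Positive, and the ranges overlapped (exact p = 0.2, adjusted 0.286). Within animals this share was higher in Positive in 3 of 3, with a log2 change of 0.45 ± 0.18 (SD), while the test above does not pair the fractions.

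**Figure D2:**
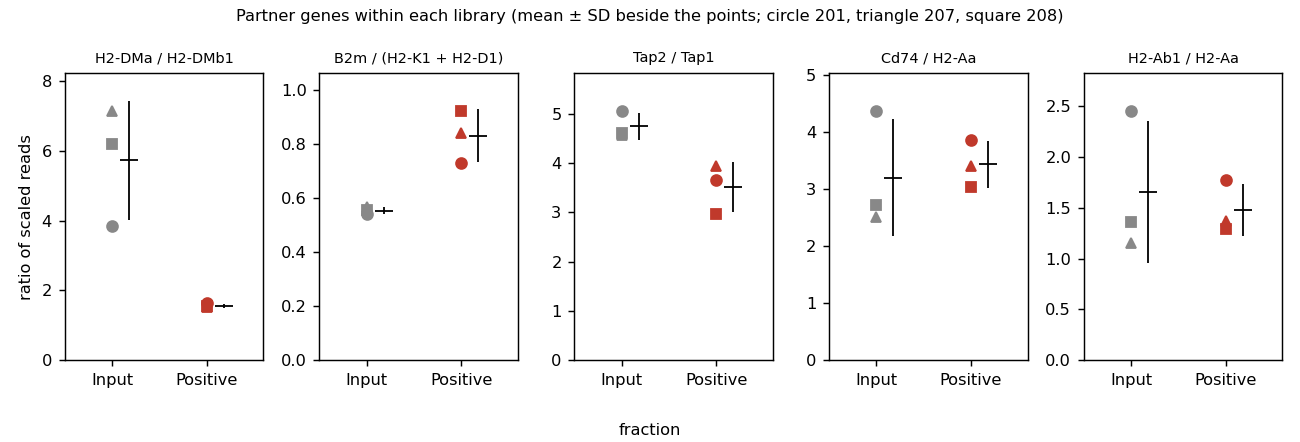
Ratios of scaled reads of partner genes in each library, by fraction, with the mean ± SD of 3 libraries beside the points. H2-DMa over H2-DMb1 and Tap2 over Tap1 are lower in every Positive library, B2m over both heavy chains is higher, and Cd74 and H2-Ab1 over H2-Aa overlap between fractions.

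The members were then set beside markers of cell types that make them. None of the 10 rose as far as the median microglia marker. B2m had 2.49 ± 0.0885 reads per read of Cx3cr1 in Input and 0.777 ± 0.015 in Positive (SD, n = 3, exact p = 0.1, adjusted 0.167), and Cd74 had 46.2% ± 10.3 and 20.7% ± 2.1 of the Cx3cr1 reads (exact p = 0.1, adjusted 0.167). The log2 ratio of B2m fell short of the median of the microglia markers, with a difference of -1.46 ± 0.08 (SD over 3 animals). For Cd74, the closest member, the difference was -0.93 ± 0.26, and for Tap2, the farthest, it was -3.61 ± 0.32.

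Border macrophage markers were enriched as a group too, 10 of 10 higher with a median log2 fold change of 4.08 (Stab1, Mrc1 and F13a1 had the highest mean scaled reads). Their summed level was 553 to 644 scaled reads in Input and 6478 to 12545 in Positive, and none of the markers was at 0. Pf4, Ms4a7, Lyve1, Cd209f and Siglec1 passed the filter only through Positive, so the count and the median of the list lean on the filter. Mrc1, Cd163, Cbr2, F13a1 and Stab1 passed in both fractions, with log2 fold changes from 3.75 (Cbr2) to 4.48 (F13a1). Mrc1, the mannose receptor, had 1070.0, 2001 and 929.8 scaled reads in Positive, the highest in animal 207. That animal was also the highest in Positive for every member but Tap1. This was not particular to border macrophages, as the summed microglia markers were highest there too (117538, 140539.8 and 95433 in animals 201, 207 and 208). Cd74 over Mrc1 was 1.97 ± 0.622 in Input and 1.37 ± 0.305 in Positive, with overlapping libraries (SD, n = 3, exact p = 0.3, adjusted 0.375). Within animals it was lower in Positive in 3 of 3, with a log2 change of -0.50 ± 0.26 (SD). How much of the class II signal came from border macrophages was not tested.

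Endothelial markers were also enriched, 10 of 10 with a median log2 fold change of 1.94, with the highest mean scaled reads for Flt1, Vwf and Cldn5. They summed to 1986 to 2391 scaled reads in Input and to 10608, 8373 and 5169 in Positive of animals 201, 207 and 208. Their median log2 ratio was 2.20, 2.15 and 1.17 in the same animals. H2-DMa (2.02, 2.16 and 1.27), Tapbp (1.75, 1.83 and 1.27), Tap1 (1.72, 1.31 and 1.04) and Tap2 (1.27, 1.10 and 0.41) lay near or below these values, and each was lowest in animal 208. H2-K1 (2.33, 2.50 and 1.77) lay just above them. The low value in animal 208 was not particular to these genes, as B2m (3.03, 3.28 and 2.94), H2-D1 (2.76, 2.85 and 2.47) and the medians of the microglia markers (4.54, 4.79 and 4.30) and border macrophage markers (3.73, 4.36 and 3.59) were also lowest there. H2-Aa (3.48, 3.44 and 3.44) was nearly the same in the 3 animals, and Cd74 (3.33, 3.89 and 3.62) and H2-Ab1 (3.03, 3.70 and 3.36) were lowest in animal 201. The part of endothelial RNA in the enrichment of class I genes was not tested.

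**Figure D3:**
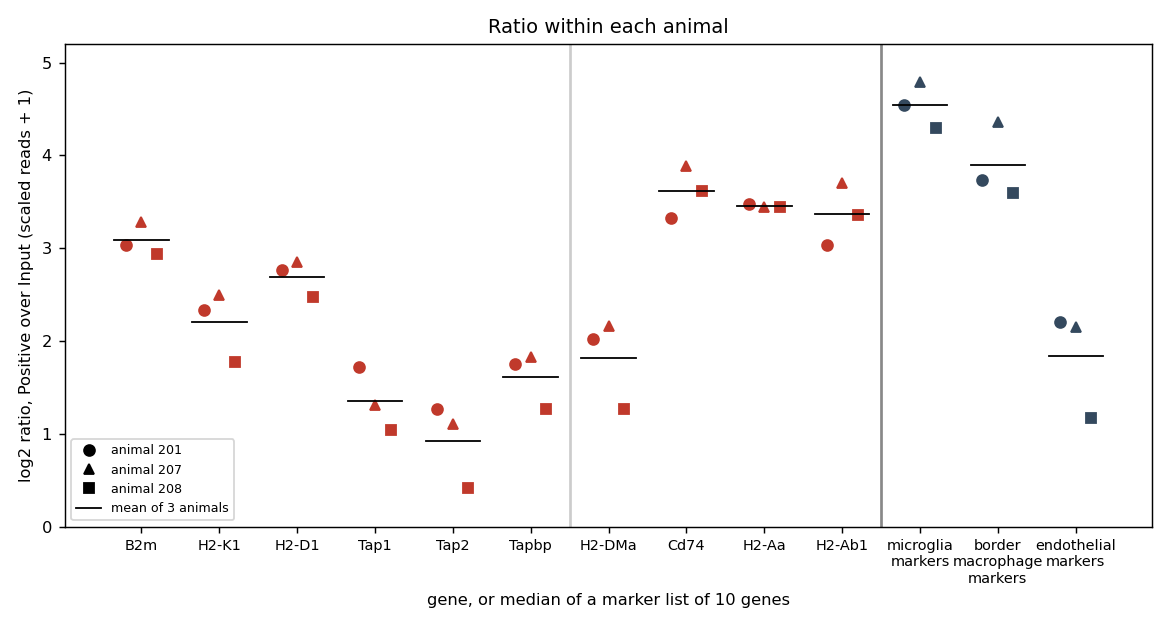
Log2 ratio of Positive over Input within each animal (scaled reads + 1) for the 10 members and for the median of each of 3 marker lists, with 1 marker shape per animal and a line at the mean. The medians of the microglia markers (4.30 to 4.79) lie above every member, Cd74, H2-Aa and H2-Ab1 come closest, and Tap2 is lowest with 0.41 in animal 208.

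Markers of other antigen-presenting cells were mixed in direction or low in reads. Of 10 dendritic cell markers 6 were analysed. Siglech (also known from microglia), Cd209a, Itgax and Clec10a were higher in Positive, with log2 fold changes of 4.75, 4.23, 3.65 and 3.03. Cd209a, Itgax and Clec10a passed the filter only through Positive. Flt3 was lower (log2 fold change -0.50, edgeR adjusted p = 0.0185) and Zbtb46 had a log2 fold change of -0.26 (edgeR adjusted p = 0.288). Flt3 had 159 to 199 and Zbtb46 118 to 169 scaled reads in Input, and which cells gave these reads was not tested. Of 8 B cell markers, Cd79b and Cd22 were analysed, with at most 6.12 scaled reads in an Input library and at most 125 in a Positive one. Of 10 T and NK cell markers Cd4 and Lck were analysed, and of 6 monocyte markers Ly6c2 and Itgal, none of them above 68 scaled reads in any library. Of these 6 genes, 5 were higher in Positive, Cd22 (log2 fold change 4.11), Cd79b (3.97), Cd4 (3.68), Itgal (2.08) and Ly6c2 (1.61). These 5 had at most 12.2 scaled reads in any Input library and passed the filter only through Positive. Their direction was thus fixed by the filter. Lck, which passed only through Input, had -0.62 (edgeR adjusted p = 0.15). Ms4a1, Cd3e and Ccr2, among other defining genes, were not analysed here. Mural cell markers had a median log2 fold change of -0.24 (1 of 10 higher and 1 lower).

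Relatives of the class I heavy chains followed the classical genes in most cases. Of 19 listed, 12 were tested, and 9 were higher in Positive, 1 was lower and 2 did not pass the test. H2-T24, H2-Q6 and Cd1d1 passed the filter only through Positive, and H2-Q1 only through Input, so these counts partly follow from the filter. H2-T24 had 16.3, 16.9 and 26.2 scaled reads in Input and 311, 357 and 199 in Positive, a log2 fold change of 3.87 ± 0.27 (SE), above that of any member. H2-T23 (Qa-1, which presents leader peptides of other class I chains) and H2-Q6 rose by log2 fold changes of 2.53 and 2.46. Fcgrt (the neonatal Fc receptor) and Hfe (a regulator of iron uptake), which also pair with B2m, rose by 1.37 and 2.02. H2-Q1 was lower in Positive, with 25.4, 24.2 and 22.3 scaled reads in Input and 10.4, 14.4 and 6.75 in Positive (log2 fold change -1.17 ± 0.36, edgeR adjusted p = 0.017), a call that DESeq2 did not make (adjusted p = 0.0622). H2-T22 had 247 to 282 scaled reads in Input and 253 to 299.6 in Positive (log2 fold change 0.06, -0.01 with total count scaling), and Mr1, which presents vitamin B metabolites, had a log2 fold change of 0.36 (edgeR adjusted p = 0.172). Reads of H2-Q1, H2-Q6, H2-Q7 and H2-T23 could be exchanged with H2-D1 or H2-K1, as above.

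Genes that supply and load class I peptides were higher in 11 of 11 cases, with a median log2 fold change of 0.85. Psmb9, with 19.4 scaled reads in Input of animal 201, passed the filter only through Positive. The immunoproteasome subunits Psmb8 and Psmb9 stood apart, rising from 84 to 839 and from 29.1 to 259.8 scaled reads on average (log2 fold changes 3.32 and 3.15), whereas Psmb10 rose by 0.39. Erap1, which trims peptides in the endoplasmic reticulum, rose by 1.44. The lowest were Psmb10, Canx (0.38), a chaperone of new heavy chains, and Sec61a1 (0.33), part of the translocation channel, both of which serve many proteins in every cell. Calr rose by 0.53 and Pdia3 by 0.85, both members of the loading complex.

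**Figure D4:**
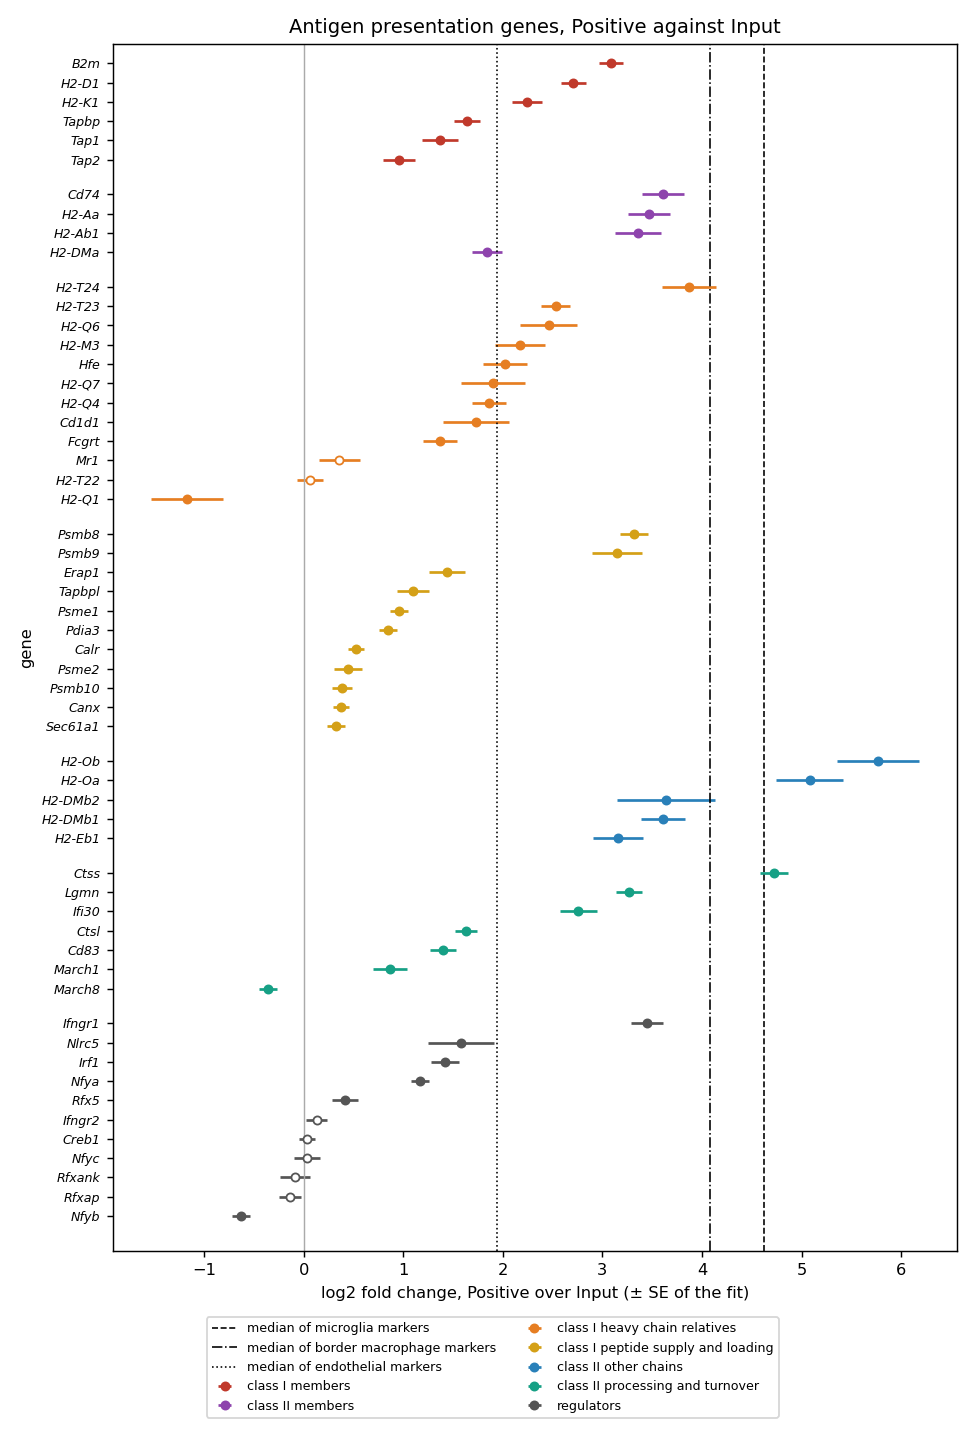
Log2 fold change (Positive over Input, ± SE of the fit) of the 10 members and of other antigen presentation genes, by role, with filled points for adjusted p under 0.05 and vertical lines at the medians of 3 marker lists. H2-Ob, H2-Oa and Ctss lie to the right of the microglia median of 4.62, and H2-Q1, March8 and Nfyb are the filled points below 0. H2-Ob and H2-Oa passed the filter only through Positive and rest on few Input reads, and H2-Q1 passed only through Input.

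The other class II chains were higher in 5 of 5 cases tested, with a median log2 fold change of 3.64. H2-DMb2, H2-Oa and H2-Ob passed the filter only through Positive, so their direction was fixed by the filter. The count and the median thus lean on the filter, while H2-Eb1 and H2-DMb1 passed in both fractions. H2-Eb1, the beta chain of the second class II molecule, had 69.7, 89.3 and 42 scaled reads in Input and 600.0, 774 and 431 in Positive, a log2 fold change of 3.16 ± 0.25 (SE), close to H2-Ab1. H2-DMb1, a partner of H2-DMa, rose by 3.61 ± 0.22, against 1.84 ± 0.15 for H2-DMa itself. H2-DMb2 rose by 3.64 ± 0.49. H2-Oa and H2-Ob, the chains of H2-DO, which holds H2-DM back, rose by 5.08 ± 0.34 and 5.77 ± 0.41. Their Input levels were 2.04 to 8.39 and 0 to 5.64 scaled reads, so these folds rest on few Input reads, while Positive held 145 to 195 and 157 to 232. Leaving out Input of animal 208 gave 5.73 for H2-Oa, and leaving out Input of animal 207 gave 6.43 for H2-Ob and 3.03 for H2-DMb2, each a shift of over 1.5 times in fold.

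Of the genes that process class II ligands or turn class II over, 6 of 7 were higher and 1 was lower. Ctss, the protease that cuts the invariant chain, rose from a mean of 1005 to 26436 scaled reads (log2 fold change 4.72 ± 0.14, SE). Lgmn, an endosomal protease, rose by 3.27 and Ifi30, a thiol reductase that unfolds antigen, by 2.76. March1 and March8 both code for ubiquitin ligases that remove class II from the surface. March1 rose by 0.87 and March8 fell by 0.36 (edgeR adjusted p = 0.00438). Cd83, which protects class II from March1, rose by 1.40.

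Regulators of MHC transcription were mixed. Of 12 tested, 6 were higher, 1 was lower and 5 did not pass the test, with a median log2 fold change of 0.27. Nlrc5, the class I transactivator, had 16.3, 16.2 and 10.5 scaled reads in Input and 51.5, 49.3 and 28 in Positive (log2 fold change 1.58 ± 0.33, edgeR adjusted p = 0.00194). It passed the filter only through Positive, so its direction was fixed by the filter. Ciita, the class II transactivator, was not analysed here. The X box factor Rfx5 had a log2 fold change of 0.42, and its partners Rfxap and Rfxank had -0.14 and -0.09 and did not pass the test. Among the subunits of NF-Y, which binds CCAAT, Nfya rose by 1.17, Nfyb fell by 0.63 and Nfyc had 0.03. Creb1, a factor of the X2 box, had 0.03. Ifngr1, the ligand-binding chain of the interferon gamma receptor, rose by 3.45 ± 0.16 (SE), and Ifngr2, the second chain, had 0.13 (edgeR adjusted p = 0.332). Irf1, a transcription factor of the interferon response, rose by 1.42.

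The genes most like 3 of the members over the 6 libraries were found by Euclidean distance of centred log2(scaled reads + 1), among 12003 genes outside all lists whose mean reached 100 scaled reads. For B2m they included Syngr2 (distance 0.17) and Gngt2 (0.21), against a median distance of 3.78 over all candidates. For Cd74 they were Wdfy4 (0.32), known for cross-presentation in dendritic cells, Tgfb1 (0.34) and Akna (0.34). For H2-Ab1 they were Adcy7 (0.37), Csf3r (0.38), the receptor of a granulocyte growth factor, and Akna (0.39). With 6 libraries in 2 fractions, likeness mostly means a similar fold change, and the log2 fold changes of the genes named here were 3.06 to 3.68.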

How the data were processed

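RNA of the Input and Positive fractions of hippocampus from 3 mice (6 libraries) was measured by directional, poly(A)-selected RNA-seq. The authors trimmed reads, aligned them by strand to mm10 (named in the submitters' processing notes) in Strand NGS, counted reads per gene, normalized by DESeq, and kept genes whose 3 libraries of 1 fraction, or of both, all reached 20 raw reads. The deposited raw columns hold expected counts (estimated counts, 17.36% to 23.12% of them whole). The normalized columns as deposited hold log2 values. The MHC haplotype of the mice is not given in the sources used here. How read mates were counted is not stated, so reads may not be independent fragments.

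Expected counts were rounded and tested with edgeR 4.0.16 (quasi-likelihood test, RLE scaling, unpaired as in the study) in R 4.3.3, for genes above 20 scaled reads in all 3 libraries of either fraction. A gene under this level in every Input library could enter only through Positive, and its direction was then fixed. Benjamini-Hochberg adjustment ran over 15343 genes, and an adjusted p under 0.05 was a call. Ratios within animals used a pseudocount of 1 scaled read. Gene lengths came from GENCODE exons of mm10. In 5 simulations with 14997 genes, 93.6% of 200 changed genes were recovered and 6.33% of calls were unchanged genes. The members and all lists were chosen with earlier results of these data known. Genes named were all 10 members, at least the 3 highest and 3 lowest of each longer pathway list and all genes of shorter ones, Cx3cr1, the most abundant markers, and the 3 nearest genes of B2m, Cd74 and H2-Ab1. H2-Q4, H2-M3 and Cd1d1 and other list genes not given values in the text are in the counts. A few genes within this rule are not reported here. Fractions with the same number came from the same animal per the labels, and correlations of their deviations from the fraction means were 0.19, 0.06 and 0.12 for animals 201, 207 and 208. Alternatives were TMM and total count scaling, DESeq2 1.42.0, no filter, a mean of at least 100 scaled reads, animal as a block, leaving out each library, and, added after the data were seen, limma 3.58.1 on the deposited log2 values and another gene length. Promoters of 7 of the 10 members were in the RefSeq table, and those of H2-K1, B2m and H2-Aa are printed.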

Additional observations from a re-analysis of the deposited data

How the results depend on the processing

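All 10 members were called higher in Positive in the main fit and in each of the 13 alternatives run, with a largest adjusted p of 0.0105 (Tap2). Leaving out 1 library moved their log2 fold changes most for H2-Ab1 (3.17 to 3.65), H2-Aa (3.28 to 3.68) and Cd74 (3.43 to 3.81), and Tap2 ran from 0.83 to 1.16. Over all genes, 7051 were called in the main fit, 52.1% of them higher, against 7319 and 41.6% with total count scaling, which shifted the median log2 fold change of all genes by -0.08. Leaving out 1 library gave 5539 to 7265 calls. With animal as a replicate block 7570 genes were called, and the calls of members (10), other class I genes (21), other class II genes (12) and regulators (7) were the same in number. Among 47 other pathway genes, 587 of 603 alternative values kept direction and call. The reversed ones were values near 0 with no call, namely with total count scaling H2-T22 (-0.01), Creb1 (-0.05) and Nfyc (-0.05), with genes under a mean of 100 scaled reads left out Creb1 (-0.0021), and without 1 library Creb1 (range -0.01 to 0.07), Nfyc (-0.06 to 0.12) and Rfxank (-0.17 to 0.03). The cause was not tested. Calls were lost for H2-Q1 in DESeq2 (-1.19), for Psme2 without Input of 201, Input of 208 or Positive of 207, and for Rfx5 without Input of 207, Input of 208 or Positive of 201. With 3 animals, ratios cannot reach an exact p under 0.1, and genes with few Input reads moved further without 1 library, H2-Oa from 4.74 to 5.73, H2-Ob from 5.22 to 6.43 and H2-DMb2 from 3.03 to 4.16.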
